A study of Mus musculus with 42 samples.

Results

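The genes described here are 150 genes whose RNA peaked on day 4 of embryoid body formation, taken from 16753 genes measured along that course. Embryoid bodies (EBs) are floating aggregates in which embryonic stem cells (ESCs) leave self-renewal and begin to form the early embryonic lineages. In each of the 7 libraries of the course the value of a gene was put on the scale log2(value + 1). A gene qualified if its highest value fell on day 4 and reached at least 20. Genes were then ranked by their margin, which is the day 4 level minus the higher of the levels on day 2 and day 8, and the 150 of largest margin were kept. Zscan4 genes, Lefty1 and Zic genes were left out by name, and 8 such genes had also met the first condition. In all, 1774 other genes met it, and the 150 are the sharpest peaks among them.

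The cells came from a mouse ESC line, KH2, that carries a Flag-tagged ISY1 gene switched on by doxycycline (Dox). ISY1 is a splicing factor that also acts in microRNA maturation. PolyA-selected RNA was sequenced from 32 libraries, 1 for each condition and time. The EB course without Dox ran over days 0, 1, 2, 4, 8, 10 and 13, and its day 0 library was ESCs in serum/LIF, which was also sampled with Dox. A second course took KH2 cells without Dox from 2i/LIF (0 h) into epiblast-like cells (EpiLCs), a culture model of the early postimplantation epiblast, at 6, 12, 18, 24, 30, 36, 48, 72 and 96 h. KH2 cells with Dox were sampled in EpiLC medium at 24, 48, 72 and 96 h, and a separate DGCR8 knockout ESC line at 0, 6, 24, 48, 72 and 96 h. DGCR8 is the partner of the nuclease Drosha, which cuts most microRNA precursors. Another 4 libraries were ESCs recovered in 2i/LIF (cESCs) without Dox from EpiLCs of 24 or 48 h, with or without earlier Dox. The knockout is 1 line that the labels do not tie to KH2 as a parent, so line and knockout cannot be told apart.

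Aggregates of this age hold cells that are leaving pluripotency and cells that begin to turn on patterning, adhesion and contractile genes. ESC cultures also hold a rare, passing state in which genes of the 2-cell embryo are read. Those genes often lie in tandem arrays of near-identical copies, such as the Tcstv and Pramel families. In these bulk libraries, fewer cells of a type and less RNA per cell cannot be told apart.

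Values are gene read counts divided by 1 scaling factor per library. On day 4 a single read was worth 0.625 units, and the library held 8.82 M reads (1 M is 1000000 reads). The libraries of days 8, 10 and 13 held between 9.30 and 9.51 M, and those of days 0, 1 and 2 held 23.84, 56.02 and 23.71 M. A level of 3 reads, used as a floor, corresponded to 1.88 units on day 4 and to 0.286 units on day 1. The lowest member on day 4, Obox4-ps12, rested on 32 reads, with a 95% exact Poisson interval of 21.9 to 45.2 that covers counting error only. Isy1 was at 328 in serum/LIF without Dox and at 5096 with Dox, and Dgcr8 was at 36.8 to 44.5 in the 6 knockout libraries against 75.2 to 231 in the matched KH2 libraries.

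Pluripotency markers were lower on day 4 than on day 0, and streak and endoderm markers had not reached their later levels. The pluripotency factor Pou5f1 was at 8539 on day 0, 3918 on day 4 and 261 on day 13. The streak gene T was at 2.50, 9.38 and 83.3 on the same days and had its highest value, 317, on day 10. Summed over 18 markers of primitive and visceral endoderm, values were 4807 on day 0, 10514 on day 4 and 45421 on day 13. Among the 14 measured genes of the Notch and segmentation list, 4 were highest on day 4, as were 7 of 26 Wnt pathway genes and 5 of 20 genes of the formative epiblast list. Shares were smaller in the other lists. They were 3 of 26 for streak and mesoderm factors, 3 of 23 for Nodal and BMP and 3 of 21 for FGF and ERK. Definitive endoderm and node had 2 of 16, EMT and adhesion 1 of 26, neuroectoderm 1 of 12 and pluripotency 1 of 18. Trophoblast had 1 of 11, germline 1 of 10, feeder fibroblast 1 of 6, and primitive and visceral endoderm 0 of 18. For comparison, 11.7% of the genes that reached 20 on any day were highest on day 4, while the list counts had no such floor. These counts use the course that chose the genes and are descriptions.

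The 150 genes fell into 3 kinds by position and name. The first is 30 genes in 5 chromosomal loci that each hold at least 3 of the 150 with gaps of at most 500 kb. The second is 20 further predicted, clone-named or pseudogene entries, such as the Obox4 pseudogenes and Usp17lb, a ubiquitin protease gene. The third is 100 genes with established names, grouped by hand into roles after their values had been seen. RefSeq (GRCm38.p6) held 138 of the 150, 133 by symbol and 5 by an older symbol.

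The 5 loci were as follows. On chromosome 10, between 104142987 and 104196522, stood 7 members: Gm21293, Gm6763, Gm8764, Gm21304, Gm21312, Gm20765 and Gm4340. On chromosome 12, between 87514316 and 88321762, stood 9, among them Gm8300, Gm4027, BB287469 and Gm2016. On chromosome 13, between 119893387 and 120264517, stood 6, including Tcstv1, AF067061, Gm21818, B020031M17Rik and Gm20767. Chromosome 4 held 3 members between 101834969 and 101975105, including B020004J07Rik, which RefSeq now names Pramel17. It held 5 more between 143511343 and 143951016, including Gm13078, now Pramel24, and Pramef25. Reads from near-identical copies may have been split or shared among them, so the single-gene values of these arrays are uncertain and the sum over a locus is given beside them.

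Some promoters of the clustered genes were near copies, within a locus and between loci. RefSeq holds a 300-base promoter, 250 bases before to 50 bases after the start, for 95 members, of which 19 lie in the 5 loci. The 6 promoters from chromosome 10 were 99.7% to 100% identical. The promoter of Gm12790, on chromosome 4, matched them at 91.5% to 91.8% and that of B020004J07Rik at 79.3%, although those genes lie on another chromosome. Within other loci, AF067061 and Gm21761 on chromosome 13 were 89.7% identical and Gm13057 and Gm13040 on chromosome 4 were 100% identical, while other pairs went down to 48.6%. The promoters of Gm4340, Gm12790 and B020004J07Rik are shown because they carry this likeness. They run 5′ to 3′ along the gene, and capitals mark every AGGTGT, a core element read by T-box factors, or its reverse complement:
Gm4340, chr10:104193792-104194091, plus strand: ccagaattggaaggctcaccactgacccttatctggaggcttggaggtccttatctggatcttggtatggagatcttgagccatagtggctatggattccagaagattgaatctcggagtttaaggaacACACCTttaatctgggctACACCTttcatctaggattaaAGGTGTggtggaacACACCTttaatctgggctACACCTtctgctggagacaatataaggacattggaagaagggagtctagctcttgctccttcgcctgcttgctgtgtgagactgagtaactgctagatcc
Gm12790, chr4:101975056-101975355, minus strand: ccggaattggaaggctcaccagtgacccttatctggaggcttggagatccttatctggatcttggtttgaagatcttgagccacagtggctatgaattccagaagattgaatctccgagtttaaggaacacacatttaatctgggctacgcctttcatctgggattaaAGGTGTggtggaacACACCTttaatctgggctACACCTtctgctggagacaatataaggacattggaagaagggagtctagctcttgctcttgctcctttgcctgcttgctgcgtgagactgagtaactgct
B020004J07Rik, chr4:101843973-101844272, minus strand: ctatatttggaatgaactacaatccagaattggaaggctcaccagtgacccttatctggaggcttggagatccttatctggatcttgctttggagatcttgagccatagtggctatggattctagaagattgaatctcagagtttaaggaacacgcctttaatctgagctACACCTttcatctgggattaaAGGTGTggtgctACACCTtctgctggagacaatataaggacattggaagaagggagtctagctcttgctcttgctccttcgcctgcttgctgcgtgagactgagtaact
The Gm4340 promoter held 5 of these hexamers and each of the others held 3. The hexamer was present in 13 of the 19 promoters from the loci (68.4%), in 11 of the 76 other member promoters (14.5%) and in 11.3% of the 11082 promoters of genes in the EB table. Since most of the 13 are copies, they are not separate occurrences. GGGCGG, the GC box read by SP and KLF factors, was in none of the 19, in 71.1% of the other member promoters and in 63.7% of those of the EB table. CpG pairs had a median of 2 per promoter in the loci, 17 in the other members and 20 over the EB table. The GATA motif AGATAA was in 9 of the 19 against 6.42% of those of the EB table, and the SMAD motif GTCTAG in 8 against 8.38%. All 8 with GTCTAG were the chromosome 10 promoters and those of Gm12790 and B020004J07Rik. AGATAA was in the same 8 and in that of Gm12794, so these too are not separate occurrences. The TATA box TATAAA was in 3 of the 19 and in 7.23% over the EB table. The TCF and LEF motif CTTTGA was in 2 of the 19 against 12.1%, and its variant with a final T, CTTTGT, in 5 against 13.6%. The FOXH1 motif AATCCAC was in 1 against 1.8%, and the NF-Y box CCAAT in 11 against 38.7%. The chromosome 10 promoters and those of Gm12790 and B020004J07Rik were among these 11. All searches covered both strands, and a match is a run of letters and no measured binding.

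Along the EB course the clustered genes had 1 rise and 1 fall. Summed over the 30 genes, values were 61.4 on day 0, 224.2 on day 1, 390.6 on day 2, 1824 on day 4, 251.7 on day 8, 63.9 on day 10 and 33.9 on day 13. The peak on day 4 is fixed by the rule that chose the genes. On the other days, all 5 loci rose from day 0 to day 2 and fell from day 8 to day 13. The chromosome 10 locus went from 7.5 on day 0 to 598 on day 4 and 10.0 on day 13. The chromosome 12 locus stood at 32.0, 659 and 15.6 on those days and the chromosome 13 locus at 12.7, 288 and 2.8. On day 13, 29 of the 30 genes were under 10% of their day 4 value. Gm21312 had 1.59, 6.38, 12.4, 83.8, 9.41, 3.89 and 1.67 over the 7 days, and Gm13078 had 1.82, 2.57, 7.78, 56.9, 4.12, 1.11 and 0.56. Of the 20 predicted and pseudogene entries outside the loci, 16 were also under 10% on day 13. Gm21451 and Gm7694 kept more, at 222 and 68.9 on day 13 against 268 and 111 on day 4.

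**Figure D1:**
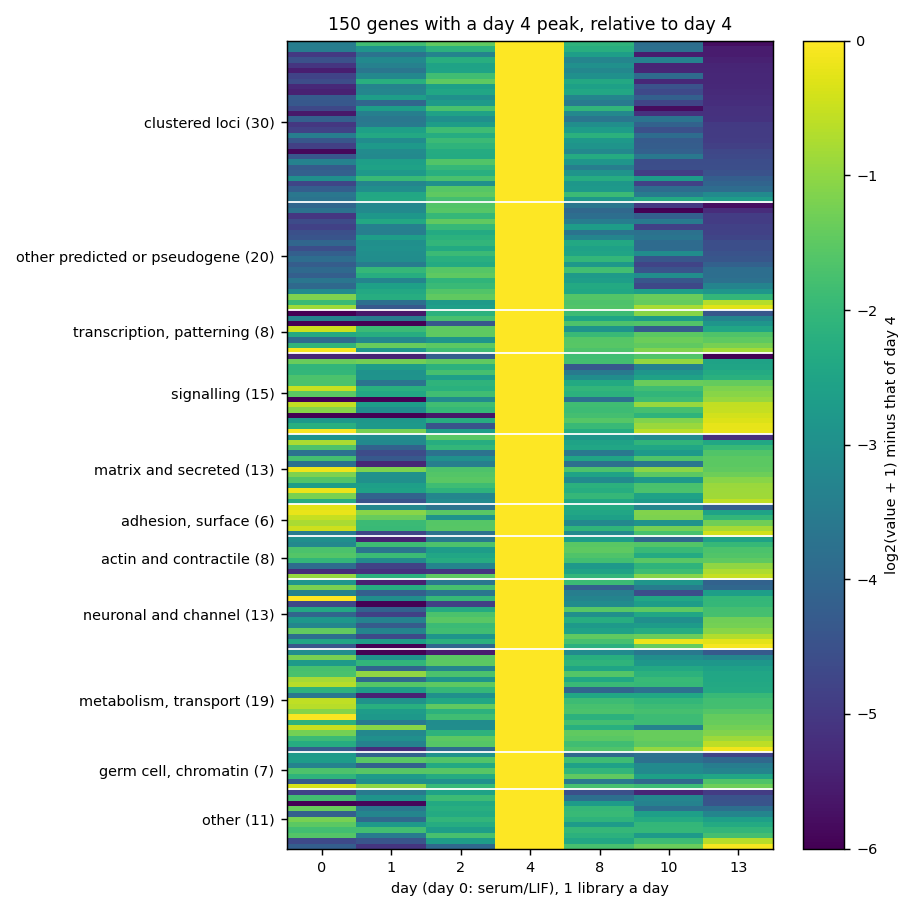
Heat map of all 150 genes (rows, grouped by kind with the number of genes) over the 7 days of the EB course (columns, 1 library a day). Colour is log2(value + 1) minus that of day 4, so day 4 is 0 in each row. Rows of the clustered loci are dark on days 0, 10 and 13, whereas many rows of the named groups are lighter again on day 13.

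The named genes did not share this single wave. Of the 100, 24 were at 50% or more of their day 4 value on day 13, and 22 were at 50% or more on day 0. The second highest day was day 0 for 37 and day 13 for 36, against day 2 for 23 of the 30 clustered genes. The named genes thus had more RNA before aggregation and at the end of the course, relative to their peak, than the clustered genes. Their median was 19.8 on day 0, 12.6 on day 2, 81.3 on day 4, 15.3 on day 8 and 18.9 on day 13.

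Signalling genes included Cxcl12, a chemokine that guides migrating cells, which was at 1.36, 0.57, 25.8, 228, 15.9, 60.6 and 118.89 from day 0 to day 13. Wnt8a, a ligand of the posterior epiblast and streak, was at 7.27, 7.05, 17.6, 339, 94.1, 108 and 2.22. Cxcl12 was thus high again on day 13, and Wnt8a was not. Notch3, a Notch receptor, ran 1050, 262, 797, 3413, 665, 1326 and 1268. Il17rd (Sef), an inhibitor of FGF signalling, ran 547, 588, 513, 1421, 409, 736 and 241. Other signalling members were the semaphorin Sema3e, the Wnt modulator Dact3, and the docking protein Dok5, which stood at 1.14 on day 0, 147.5 on day 4 and 111 on day 13.

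The group of transcription and patterning genes had 8 members. Hoxb1 ran 0.23, 0.95, 9.56, 217.5, 67.7, 70.0 and 28.9. It belongs to the early anterior Hox genes that respond to retinoic acid. Hoxb9, from the posterior side of the Hoxb cluster, was at 31.9 on day 4 and between 5.45 and 10.7 on the other days. The retinoid genes Stra6, a retinol uptake receptor, and Dhrs3, a retinal reductase, were also members, at 43.1 and 33.8 on day 4 and at 1.36 and 7.05 on day 0. Vrtn, which in pigs is tied to vertebral number, was at 0.91 on day 0 and 217.5 on day 4.

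Matrix and secreted proteins made up 13 members and the contractile apparatus 8. Aebp1, a collagen-binding secreted protein, had the widest margin of the 150 (3.58) and ran 12.1, 6.10, 12.0, 173, 13.5, 24.4 and 55.6. Thbs4, a matrix thrombospondin, stood at 5.45 on day 0, 86.9 on day 4 and 30.0 on day 13. The IGF-binding protein Igfbp2 ran 1274, 238, 1001, 4086, 744, 751 and 1054. Acta1, skeletal alpha-actin, ran 3.64, 4.00, 4.22, 176, 29.4, 47.2 and 105. Cnn1 (calponin) and Pdlim3, a Z-disc protein, were at 263 and 93.8 on day 4 and at 44.4 and 46.7 on day 13. No heart and muscle gene of a list of 12 measured markers was highest on day 4. The promoter of Acta1 is shown because it holds a CArG box, the element read by serum response factor, in capitals, with its first base 73 bases before the start site:
Acta1, chr8:123894726-123895025, minus strand: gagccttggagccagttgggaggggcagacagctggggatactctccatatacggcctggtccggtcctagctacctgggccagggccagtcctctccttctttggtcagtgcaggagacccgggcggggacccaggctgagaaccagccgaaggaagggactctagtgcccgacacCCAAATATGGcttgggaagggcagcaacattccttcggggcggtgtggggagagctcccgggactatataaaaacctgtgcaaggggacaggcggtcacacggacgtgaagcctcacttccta
CArG boxes were in 2 of 95 member promoters, those of Acta1 and Tmem63a (2.11%), and in 1.38% of those of the EB table, a search added after the contractile members were seen.

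Thy1, a surface glycoprotein that is also a fibroblast marker, ran 135, 16.5, 11.6, 162, 30.6, 16.1 and 7.78. Summed over 6 measured fibroblast markers of feeder cells, Thy1 included, values were 179.8 on day 0, 21.5 on day 1, 25.1 on day 2, 328.8 on day 4, 103.5 on day 8, 128.9 on day 10 and 12581 on day 13. The collagen gene Col1a1 of that list was at 44.3, 4.38, 12.4, 123, 23.5, 45.0 and 4921. On day 4 the sum was mostly Thy1 (161.88), Col1a1 (123) and Col1a2 (43.1), while Col3a1 and Lum were at 0.00 and Dcn at 0.63. The part of fibroblast-like cells in the day 4 values of the matrix and contractile genes was not tested.

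Neuronal, metabolic and germ-cell genes completed the set. Syt13, a synaptotagmin, ran 21.8, 3.71, 19.6, 594, 68.2, 92.8 and 148, and the axonal motor Kif1a ran 55.5, 13.8, 71.6, 1163, 255, 436 and 1096. Cacng5, a calcium channel gamma subunit family member, peaked at 22.5 and was at 0 to 2.78 on the other days. Dchs2, a cadherin, was at 70.0 on day 4 and 52.2 on day 13. Cda, cytidine deaminase, was at 11.8 on day 0, 106 on day 4 and 4.44 on day 13. Aldolase A (Aldoa) ran 4742, 1594, 2689, 7387, 2184, 1988 and 2145, and Aldoc and the Aldoa-derived Aldoart1 were members too. Aldoa and Aldoart1 are close copies and may share reads. The histone gene Hist1h1a and Kctd19, a meiotic gene, were at 31.9 and 42.5 on day 4. Alpl, the alkaline phosphatase used as an ESC stain, ran 671, 350, 376, 1051, 274, 264 and 203.

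The ranking was dense at its end. The last genes inside were RP23-93H2.1, Gm2016 and Aldoa with margins of 1.466, 1.462 and 1.457. The first outside were Rab3b, Tmem72 and BC147527 with 1.453, 1.448 and 1.442.

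The EpiLC course asks whether the same genes rise when cells pass into an epiblast state without aggregation. It comes from other libraries than those that chose the genes. Most of the measured members were higher at its end. Of 127 members in that table, 122 passed a mean value of 1, and 77 rose along the course while 24 fell (limma moderated F-test on a spline of time, Benjamini-Hochberg adjusted p under 0.05 over 16206 genes). The test asks for any change over time. Rise or fall is the sign of the fitted 96 h minus 0 h difference, which was not itself tested. Lpcat2, counted as a rise, had a fitted difference of only 0.03. Over all genes tested, 25.4% rose and 24.8% fell, and among the 122 members 63.1% rose and 19.7% fell. The median fitted difference between 96 h and 0 h was 1.97 on the log2 scale for the members and -0.02 for all genes. The highest library was that of 96 h for 50 members and that of 72 h for 34, or 41% and 27.9% of them, against 15.6% and 11.8% of all genes.

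The widest gains included the contractile gene Pdlim3, the neuronal genes Syt13 and Kif1a and the matrix protease gene Mmp25. Pdlim3 was listed at 0.0 at 0, 6, 12 and 24 h, and at 43.4, 108 and 359 at 48, 72 and 96 h (adjusted p = 7.64e-05). Syt13 had 1.7 in 2i/LIF, 49.1 after 24 h, 231.9 after 48 h, 652 after 72 h and 529 after 96 h (adjusted p = 3.24e-05). Kif1a stayed between 0.0 and 14.2 up to 48 h and then reached 293.5 and 675 (adjusted p = 0.000185). These 3 genes had their highest values on the last 2 time points. Pdlim3 and Kif1a were thus late, while Syt13 was already higher by 24 h. The metalloprotease Mmp25 was at 8.7 at 0 h and 1054 at 96 h (adjusted p = 1.23e-05), Vrtn at 0.0 and 117 (3.43e-05) and Tmem154 at 0.9 and 187 (0.000316). By role, 6 of 8 contractile, 9 of 12 matrix, 10 of 13 signalling, 13 of 19 metabolic and 8 of 12 neuronal members rose, and 1, 1, 2, 3 and 3 fell. The median fitted difference was 2.90, 2.26, 2.53, 1.46 and 1.92 in these groups. Notch3 rose, from 253 at 0 h to 4150 at 96 h, as did Wnt8a, from 0.0 to 30.2, Il17rd, from 401 to 1808, and Igfbp2, from 782 to 1785 (adjusted p = 0.000587, 0.000145, 0.000208 and 0.000847).

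Falls were more numerous than rises in the patterning and germ-cell groups. Of 7 tested transcription and patterning members 5 fell and 2 rose. Hoxb9 went from 8.7 at 0 h to 0.0 at 96 h (adjusted p = 0.00352). The homeobox gene Barx1 and the zinc finger genes Zfp264 and Zc3h6 were among those that fell. Hoxb1 was not analysed in this course. Of 6 tested germ-cell, chromatin and translation members 4 fell, among them Smc1b with a fitted difference of -0.13. Patl2, an oocyte RNA-binding protein, was at 299 at 0 h, 8.7 at its lowest and 47.2 at 96 h (0.000219). Its fitted difference without the 0 h library was 0.24, so its direction rests on that library, and the same held for Kctd19 (0.43, adjusted p = 0.256). Without the 0 h library 14 of 122 members fell in place of 24, where 3377 of 16162 genes did. The ribosomal protein paralog Rpl39l went from 183.5 to 13.2 (1.83e-05). The neurotrophin receptor Ngfr went from 330.4 to 1062.5 at 6 h and was at 8.5 at 96 h (8.48e-05). Alpl was at 2616 at 0 h and 304 at 96 h (0.000156), and Lrrc15, a leucine-rich repeat membrane protein, at 133.9 and 7.2 (0.00502).

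In EpiLCs the summed clustered genes were higher at 72 and 96 h than before. Summed over the 23 of 30 in that table, values lay between 34.8 and 63.0 from 0 to 48 h and were 189.5 at 72 h and 146.5 at 96 h. In the spline fit 13 of the 23 rose, 1 fell (Gm12790) and 9 were not called. The first chromosome 4 locus did not share the late values, with its highest sum, 20.8, at 0 h and 9.8 at 96 h. The EB and EpiLC tables were scaled separately, so levels are not compared across them.

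**Figure D2:**
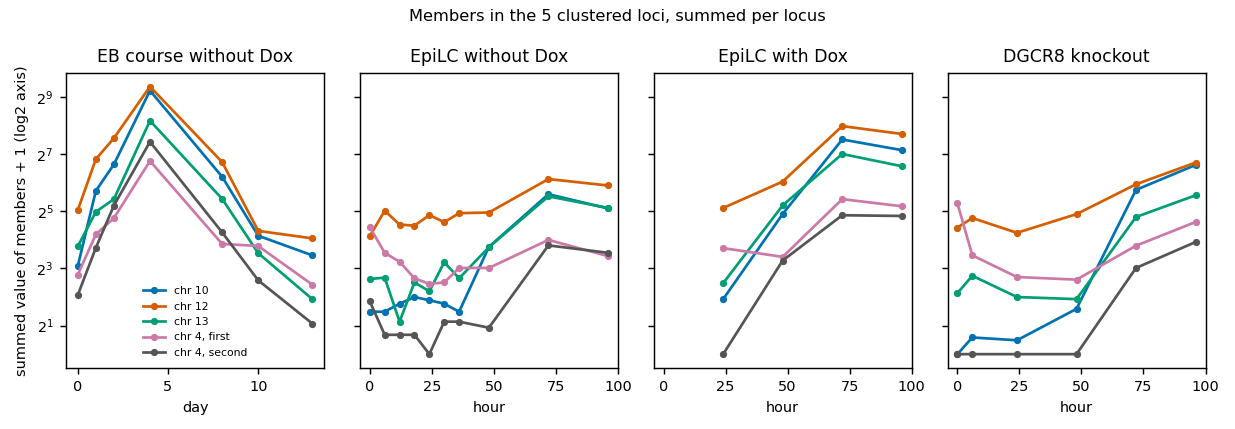
Summed value of the members in each of the 5 clustered loci plus 1, on a log2 axis, over days of the EB course and hours of the EpiLC course without Dox, with Dox and in the DGCR8 knockout (1 library a point, EpiLC sums over the members in that table). All 5 sums are highest on day 4 of the EB course, which the choice of genes fixed. With Dox the sum of the chromosome 10 locus is 181.9 at 72 h against 47.5 without.

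With Dox the clustered genes and the named genes moved apart. At 72 h the summed clustered genes were at 631.7 with Dox and 189.5 without, and at 96 h at 505.9 and 146.5. At 24 h they were at 53.2 and 39.0, and at 48 h at 148.2 and 63.0. The sum was thus higher with Dox in all 4 pairs of libraries, but at 24 h the median over the 23 genes was 0.9 in both. At that hour the first chromosome 4 locus was at 12.1 with Dox and 4.5 without, and the second at 0.0 in both. At 48 h, 12 of 23 were at least 2-fold higher on the log2(value + 1) scale, where 4.47% of all 16117 genes were. At 72 h, 20 of 23 were at least 2-fold higher and none as much lower, where 7.21% of all genes were higher and 5.23% lower. At 96 h it was 21 of 23, where 8.17% of all genes were. All 23 had a positive difference averaged over the 4 hours (median 1.16), but no single one passed the limma test. The entries outside the loci had a like median of 1.04, with 11 of 14 at least 2-fold higher at 96 h. The chromosome 10 locus stood at 2.8, 29.0, 181.9 and 140.3 with Dox at 24, 48, 72 and 96 h, and at 2.7, 12.5, 47.5 and 33.3 without.

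Pooled, the named genes had lower values with Dox from 48 h on. Their median difference was 0.00 at 24 h, -0.48 at 48 h, -0.64 at 72 h and -0.78 at 96 h over 89 tested genes. Of these, 25 were at least 2-fold lower at 48 h, 31 at 72 h and 38 at 96 h, where 4.83%, 5.23% and 6.45% of all genes were. As much higher were 3, 9 and 10 at those hours, where 4.47%, 7.21% and 8.17% of all genes were. At every hour, 25 of 89 were lower (28.1%), against 14.6% of all genes, and 7 were higher (7.87%), against 15.6%. Not all role groups shared this. The median of the averaged difference was 0.19 over 7 transcription and patterning members and 0.22 over 6 germ-cell, chromatin and translation members. At 96 h, 3 of the 7 patterning members were at least 2-fold higher and 2 as much lower. In the limma fit over the 4 pairs with hour as a block, 5 of 126 tested members passed, 4 lower and 1 higher, where 1.05% and 1.78% of all genes did. Counting unadjusted p-values under 0.05, 69 of the 126 members and 3682 of all 16117 genes passed. The limma fit gave no call among members without its intensity trend or without the block, nor when the 48 h or 72 h pair was left out. It called 2 lower without the 96 h pair, and 14 higher and 25 lower without the 24 h pair, where 22 of 16101 genes, and 598 and 524 of 16079, were called in those directions, so the count rests on which hours enter.

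Calponin Cnn1 was at 0.0, 4.4, 29.2 and 78.3 with Dox and at 6.4, 39.8, 165.5 and 235.7 without, a difference of -2.46 ± 0.27 (SE, 4 pairs, limma adjusted p = 0.0318). Mmp25 was at 102.8, 153.5, 289 and 323 against 174.5, 480, 819.5 and 1054 (-1.40 ± 0.16, limma adjusted p = 0.0318). Both were lower with Dox at all 4 hours. Phyhip was lower by the same test (0.0, 5.3, 5.2 and 12.7 against 1.8, 26.5, 34.0 and 71.1, limma adjusted p = 0.0345). Limch1, an actomyosin regulator, was the only member called higher, at 12.1, 12.3, 11.2 and 8.1 against 2.7, 4.4, 4.5 and 2.1 (limma adjusted p = 0.0466). Kif1a was at 36.7 and 88.7 with Dox at 72 and 96 h against 293.5 and 675 without, yet missed the threshold (-1.65 ± 0.51, limma adjusted p = 0.117). The check gene Isy1 itself missed it too (1.45 ± 0.31, limma adjusted p = 0.0542), with 3038, 912, 1109 and 708 against 423, 396.5, 557.5 and 418.

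None of the 13 tested signalling members was called with Dox. Of these, 6 were lower at every hour (46.2%, against 14.6% of all genes) and 1 higher, with a median difference of -0.46. Single members differed in course. Wnt8a was at 0.9, 3.5, 67.0 and 68.8 with Dox and at 3.6, 21.2, 26.0 and 30.2 without (-0.27 ± 0.61, limma adjusted p = 0.827). It was thus lower with Dox at 24 and 48 h and higher at 72 and 96 h. The surface gene Thy1 was at 50.5, 24.6, 30.7 and 17.6 with Dox against 39.1, 37.2, 134.5 and 137.0. Ngfr was at 414.0, 114.0, 181.6 and 133.0 with Dox and at 293.6, 46.0, 28.0 and 8.5 without (2.06 ± 0.48, limma adjusted p = 0.0643). Ngfr, which fell along the course, was higher with Dox in all 4 pairs. Notch3 was at 595, 672, 3182 and 3854 with Dox, and at 484, 1171, 3950 and 4150 without (-0.23 ± 0.16, limma adjusted p = 0.419).

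**Figure D3:**
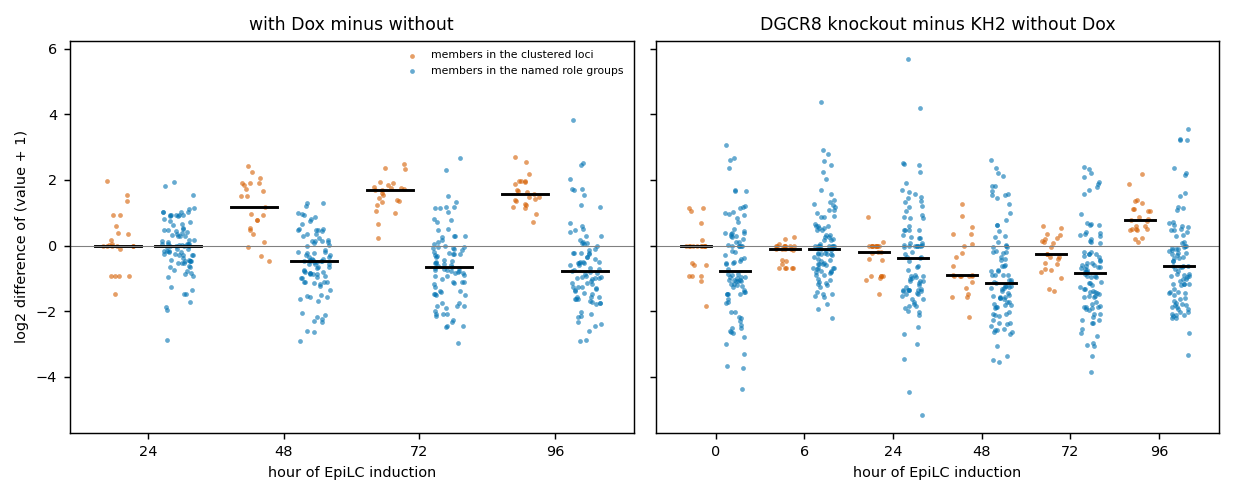
Log2 difference of (value + 1) at each hour for the members in the clustered loci (orange) and in the named role groups (blue), with Dox minus without (left) and DGCR8 knockout minus KH2 without Dox (right). Each point is a gene and each bar a median. With Dox the medians at 96 h are 1.56 and -0.78, and at 24 h both are 0.00.

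In serum/LIF ESCs the named genes were lower with Dox too, while most clustered genes were near the floor. There was 1 library with and 1 without Dox, so these are values with no test. Of 95 named members with a mean of at least 1, 38 were at least 2-fold lower with Dox and 2 higher, where 8.2% of all genes were lower and 1.18% higher. Of 20 clustered members 4 were 2-fold higher and none as much lower, and the summed 30 were at 86.9 with Dox and 61.4 without. Their medians were 1.78 and 0.91, where 3 reads were 0.714 and 0.682 units. The chromosome 12 locus was at 51.2 with Dox and 32.0 without, chromosome 10 at 12.8 and 7.5 and chromosome 13 at 13.6 and 12.7. The 2 loci on chromosome 4 were at 5.0 and 4.3 with Dox and at 5.9 and 3.2 without. Kif1a was at 5.95 with Dox and 55.5 without, Cnn1 at 4.29 and 31.6, and Igfbp2 at 341 and 1274. The library without Dox is also day 0 of the course that chose the genes.

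In the DGCR8 knockout 33 of 90 tested named members were lower and 10 higher, and none of the 23 clustered genes was called. Of all 125 tested members 34 were lower and 10 higher than in KH2 cells without Dox (limma over 6 pairs with hour as a block), or 27.2% and 8%, where 24.3% and 18.1% of all 16267 genes were. Over all 125 members the share called lower is therefore near that of all genes, and the share called higher is smaller. Counts of 2-fold differences in the named members stood further apart. At 48 h, 49 of the 90 were at least 2-fold lower and 13 higher, where 14.5% and 10.4% of all genes were. At 96 h it was 35 lower and 12 higher, where 6.76% and 10.6% were. At 6 h it was 15 lower and 17 higher, where 8.82% and 11% were. The median fitted difference was -0.39 for the 125 members and -0.08 for all genes. Without the block 11 members were lower and 5 higher, where 2137 and 1350 of all 16267 genes were. The Dox and the knockout comparisons share the KH2 libraries without Dox.

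Notch3 had one of the widest differences. It was at 35.9, 14.3, 59.1, 222, 502 and 981 in the knockout at 0, 6, 24, 48, 72 and 96 h and at 253, 51.2, 484, 1171, 3950 and 4150 in KH2, a difference of -2.50 ± 0.17 (SE, 6 pairs, limma adjusted p = 3.7e-05). The protease Hpn was at 0.0, 0.0, 0.4, 2.8, 5.9 and 25.1 against 7.0, 0.6, 14.5, 43.4, 55.5 and 68.1 (-2.52 ± 0.41, limma adjusted p = 0.00153). Each was lower in the knockout at all 6 hours. Padi3 (a peptidylarginine deiminase), Got1l1, the thyroid hormone binding protein Crym and the fat storage protein Fitm1 were lower, with differences from -1.97 to -1.95 on the log2 scale (limma adjusted p from 0.00133 to 0.00427). Of the list members, Wnt8a was lower at -1.41 ± 0.37 (limma adjusted p = 0.0148) and Thy1 at -1.29 ± 0.29 (limma adjusted p = 0.00656). Aldoa was lower too, at -1.14 ± 0.16 (limma adjusted p = 0.000804), and its copy Aldoart1 was among the 34.

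Higher in the knockout were Rpia, an enzyme of the pentose phosphate pathway, at 319.7 to 431 over the 6 hours against 60.9 to 144 (1.93 ± 0.14, limma adjusted p = 4.28e-05), and the cadherin Cdhr1 at 148 to 379 against 22.6 to 119.1 (2.04 ± 0.27, limma adjusted p = 0.00061). The ranges of the 2 lines did not overlap for either gene. Alpl was at 4320.0 in 2i/LIF and 1581 at 96 h in the knockout, against 2616 and 304 (1.61 ± 0.24, limma adjusted p = 0.00102). Lrrc15, Rsph1, a ciliary protein, and Radil, a Rap effector, were higher as well, by 2.29, 1.52 and 1.45 on the log2 scale (limma adjusted p = 0.0142, 0.00126 and 0.00502). Aebp1, Smc1b, Tmem63a and Limch1 made up the 10.

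The 23 clustered genes had a median difference of -0.14 in the knockout. Their sum was 61.8 at 0 h, 26.9 at 24 h, 38.8 at 48 h, 160.5 at 72 h and 285 at 96 h, against 46.9, 39.0, 63.0, 189.5 and 146.5 in KH2. At 96 h, 9 of 23 were at least 2-fold higher in the knockout, and none as much lower, where 10.6% of all genes were higher and 6.76% lower. At 48 h 1 was that much higher and 6 lower, where 10.4% and 14.5% of all genes were.

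**Figure D4:**
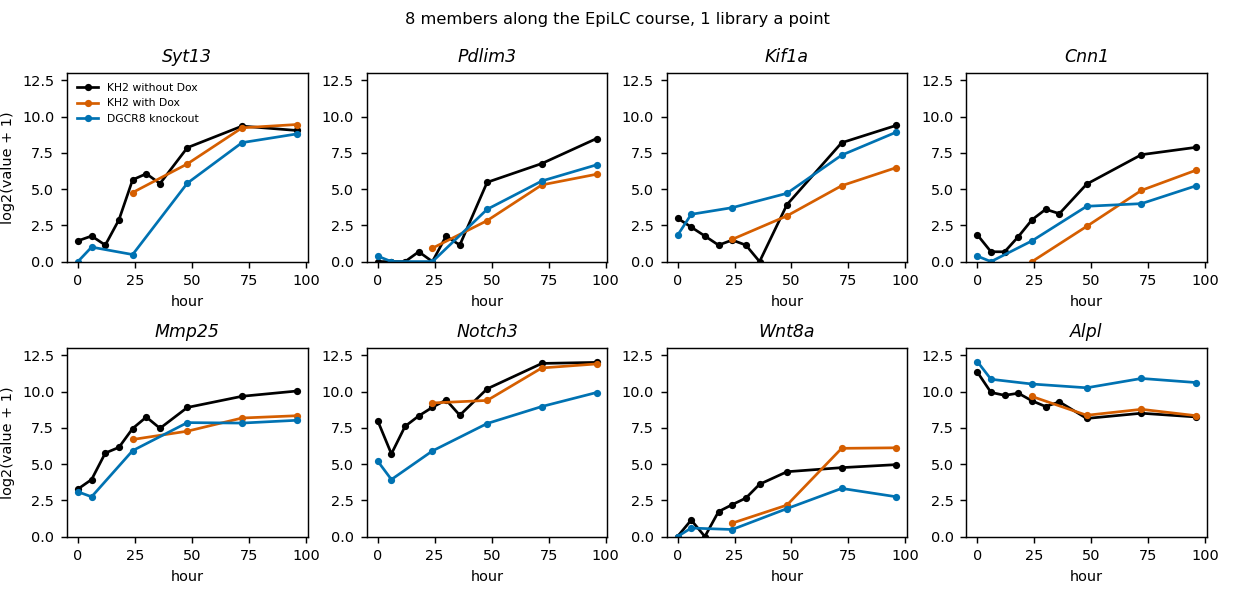
Level of 8 members, as log2(value + 1), by hour of the EpiLC course in KH2 cells without Dox (black), KH2 cells with Dox (orange) and the DGCR8 knockout line (blue), 1 library a point. Notch3 in the knockout lies under KH2 at every shared hour, Cnn1 and Mmp25 lie lower with Dox, and Alpl lies higher in the knockout.

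Cells returned to 2i/LIF gave a single library for each history. The clustered genes summed to 49.1 and 44.4 in cESCs from 24 h and 48 h EpiLCs without Dox, and to 65.0 and 125.1 in those from EpiLCs with Dox. At 0 h they had stood at 46.9. Among cESCs from 48 h EpiLCs, 11 of 20 clustered genes were at least 2-fold higher after Dox than without and none lower, where 5.04% of all genes were higher and 3.61% lower. The library from 24 h EpiLCs without Dox held high values of several named members. Pdlim3 was at 57.5, Acta1 at 53.3, Kif1a at 44.2 and Syt13 at 35.0 there, against 1.8, 4.5, 2.7 and 2.7 in cESCs from 48 h EpiLCs without Dox. In cESCs from 24 h EpiLCs with Dox they were at 0.0, 7.0, 0.9 and 4.4, and 35 of 80 named members were at least 2-fold lower there than in the library without Dox and 7 higher, where 7.5% and 13.3% of all genes were. With 48 h EpiLCs the order was turned, with these genes at 16.2, 23.4, 14.4 and 29.7 after Dox. The differences of these named members thus had no common direction between the 24 h and 48 h histories. The clustered sum was higher after Dox in both, but for the 24 h history this rests on low values. There the median over the 23 genes was 1.8 after Dox and 0.8 without, where 1 read was 0.877 and 0.833 units. The chromosome 13 locus was lower after Dox in that history. Of 13 clustered genes compared there, 3 were at least 2-fold higher after Dox and 1 as much lower.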

How the data were processed

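PolyA RNA libraries were prepared with a stranded TruSeq kit, per the labels' protocols. Bowtie and the builds GRCm38 and mm9 are named in the submitters' processing notes. The gene counter, annotation and scaling method are not given in the sources used here. The deposited signal values are scaled read counts: whole reads could be recovered in 24 of 32 polyA libraries and not in 8. The 8 were KH2 EpiLCs without Dox at 96 h and with Dox at 72 and 96 h, and all knockout libraries but that of 48 h. The Dox differences at 72 and 96 h and most knockout differences therefore involve such libraries. EB libraries held 8.82 to 56.02 M reads, and recovered EpiLC-table libraries 5.802 to 11.77 M.

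Values were analysed as log2(value + 1). Fits used limma 3.58.1 with an intensity trend (R 4.3.3), genes with a mean of at least 1, and Benjamini-Hochberg adjustment over all genes at 0.05. The course was fitted with a natural spline (3 degrees of freedom) in square-rooted hours, and its direction is fitted 96 h minus 0 h. The Dox and knockout fits had hour as a block. With 1 library per condition and hour, p-values measure the spread over hours only. Comparisons of single libraries count differences of at least 2-fold, with no test. edgeR 4.0.16 on recovered reads was an alternative. Scripts were tested on simulated data. Promoters were aligned with Biopython 1.88, taking the first listed promoter per gene, and tables and figures used Python 3.11.15, numpy 2.4.6, pandas 2.3.3 and matplotlib 3.10.9.

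The members and lists were chosen with earlier results of these data known. Genes named by rule were list members, the 15 of largest margin, up to 6 called members of largest coefficient each way per fit, the 3 on each side of the margin threshold, the 6 of highest day 4 value, Isy1 and Dgcr8. Other named members, and the role groups, were chosen after their values were seen. The microRNA libraries were not used here. Some results are not reported here.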

Additional observations from a re-analysis of the deposited data

How the results depend on the processing

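Requiring at least 50 on day 4 kept 88 of the 150 genes, and other forms of the rule shared between 105 and 144. Along the EpiLC course 14 members were lower with a spline of 2 degrees of freedom in place of 24, where 3466 of 16206 genes were. Leaving out single libraries gave 58 to 84 higher and 14 to 24 lower. Over all genes it gave 3131 to 4198 higher and 2959 to 4064 lower. Without the 0 h library Kctd19 turned to 0.43 (limma adjusted p = 0.256) and Patl2 to 0.24 (limma adjusted p = 0.00539); over all single libraries left out they ranged from -2.72 to 0.43 and from -3.06 to 0.24. With Dox, leaving out 1 pair gave 0 to 14 higher and 0 to 25 lower, where 0 to 598 and 0 to 524 of all genes were. No member was called in either direction without the intensity trend or without the block for hour (0 higher, 0 lower), although 29 higher and 32 lower, and 7 and 10, had an unadjusted limma p under 0.05, as did 3306 and 1276 of all 16117 genes. edgeR on the 24 h and 48 h pairs called 0 of 117 members higher and 4 lower, where 74 and 35 of 15980 genes were. At an unadjusted edgeR p under 0.05 there were 6 higher and 23 lower, and 2264 of all genes in either direction. Without the block for hour, 5 members were higher and 11 lower in the knockout, where 1350 and 2137 of 16267 genes were. Leaving out 1 pair gave 9 to 12 and 29 to 38, where 2428 to 2629 and 3060 to 3687 of all genes were. The causes were not tested. edgeR was not run for the knockout, where only the 48 h pair gave whole reads in both libraries. Median-ratio scaling moved the median knockout difference of all genes from -0.08 to 0.01. The Dox and knockout fits pair libraries by hour. No paired analysis was possible by replicate number, because the labels give none. Depth limits the low members: on day 4 a level of 3 reads was 1.88 units.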
